A study of Mus musculus with 12 samples.

Results

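The comparison described here is that of mouse hearts injured by ischemia and reperfusion (I/R) with and without ML264, a small molecule used in the study to inhibit the transcription factor KLF5. Its members are the 4 libraries labelled I/R + ML264 and the 4 labelled I/R, chosen by label alone, and they make up 8 of the 12 libraries of the series. The other 4 libraries are from sham-operated hearts and serve as the reference level. All are bulk RNA libraries of frozen heart tissue, taken 2 h after surgery in each group. Both injured groups had 30 min of ischemia and 2 h of reperfusion. The labels give no strain, age or sex of the mice, and no dose, route or time of ML264, and no group of sham-operated hearts with ML264 is listed. Nor do they tell how many mice the libraries of a group come from, and part of the spread behind every p-value here may thus be technical. Levels of Y-linked transcripts, given below, differed within each injured group, so neither of these groups comes from a single mouse.

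KLF5 belongs to the Krüppel-like factors, zinc-finger proteins that bind CACCC- and GC-rich elements in promoters and regulate growth, inflammation and metabolism. In the heart it is known as a regulator of fatty acid metabolism through Ppara, and it has been tied to oxidative stress through Nox4 and to ceramide synthesis through Sptlc1 and Sptlc2. ML264 was found in a screen for compounds that lower KLF5 levels and is used as a tool to reduce KLF5 activity. When blood flow returns after ischemia, heart muscle faces calcium overload, opening of mitochondrial pores and a burst of oxidants, and within hours stress genes, cytokines and adhesion molecules are induced and neutrophils arrive.

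Each library held between 22.26 M and 29.93 M estimated counts, and 35.24% to 41.13% of them came from mitochondrially encoded genes. Of 33615 gene symbols, 25902 had a count and 15952 passed the filter on low counts. All 18 cardiomyocyte markers had counts, and they summed to 90050 to 108900 CPM. I/R + ML264 library 2 stood apart from the other treated libraries. It had at least 3 counts for 18927 genes, against 17161 to 17927 in the other 11 libraries. Its summed level of related predicted genes (Gm10800 and its relatives) was 1110 CPM (counts per 1e6 counts, scaled between libraries) against 22.88 to 65.53. Y-linked transcripts summed to 152.8 to 160 CPM in 8 libraries and to 17.87 to 23.98 CPM in I/R libraries 1 and 4 and I/R + ML264 libraries 1 and 2, so low and high libraries fell evenly into both injured groups, while every sham library was high.

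The transcript of the factor that ML264 is aimed at was almost absent. Klf5 had 15, 3, 2 and 3 estimated counts in the I/R libraries, 5, 9, 8 and 3 with ML264 and 3, 10, 3 and 4 in sham hearts, which is below the minimum for testing. The ranges overlapped. Tested with no minimum count, its log2 fold change was 0.08 ± 0.76 (SE; edgeR adjusted p = 1), so a change in Klf5 RNA was not detectable at this depth. The files hold RNA values and no measurement of the protein.

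Among the 15952 genes tested with edgeR's quasi-likelihood test, 8 differed between I/R + ML264 and I/R at a Benjamini-Hochberg adjusted p under 0.05, which is 0.0502% of them. Itpkb and Gm15500 rose (0.0125% of genes were called higher), and Atp6v1h, Ilf2, Rbm25, Nexn, mt-Nd1 and mt-Nd2 fell (0.0376% lower), with log2 fold changes between -0.65 and 0.84. The median log2 fold change over all genes tested was 1e-04, and 50% of genes had a value below 0. An unadjusted p under 0.05 was reached by 1659 genes, 794 of them higher and 865 lower with ML264. The 2 groups' CPM did not overlap in 897 genes (5.62%), of which 405 were higher (2.54%) and 492 lower (3.08%) with ML264. In the same fit, which shares the I/R libraries between contrasts, 1236 genes (7.75%) differed between I/R and sham hearts and 46 (0.288%) between I/R + ML264 and sham hearts.

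**Figure D1:**
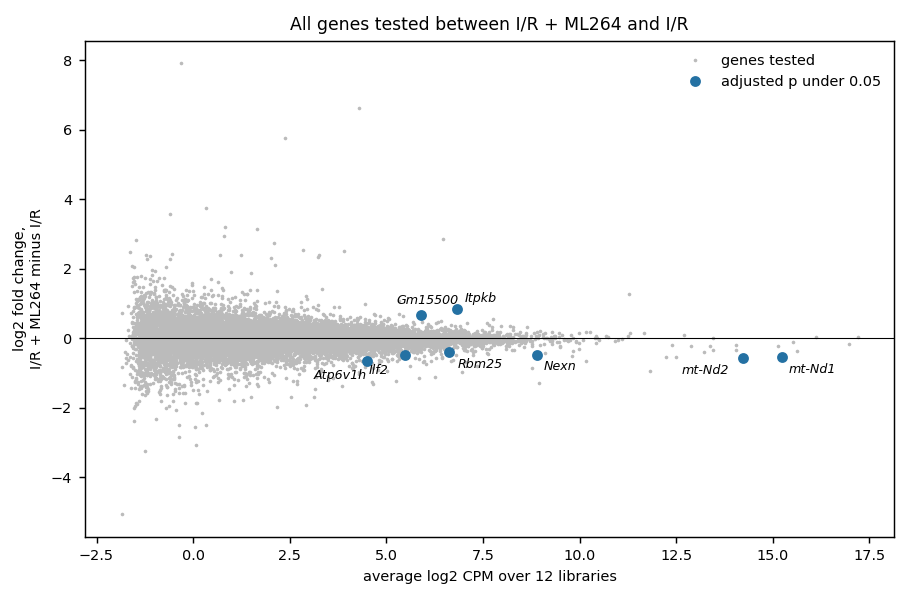
Log2 fold change of I/R + ML264 over I/R (vertical axis) against the average log2 CPM over 12 libraries (horizontal axis) for the 15952 genes tested, with the 8 called genes marked and named. The called genes lie at moderate to high expression and at modest fold changes, while the widest scatter lies among low-count genes that did not pass the test.

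Itpkb encodes the inositol-trisphosphate 3-kinase B, which phosphorylates the second messenger that releases calcium from intracellular stores and so lowers its level. It lies on chromosome 1, 180330485 to 180424802, plus strand (GRCm38), and is protein coding. Its normalised level was 73.1, 84.4, 67.7 and 67.7 CPM in the I/R libraries and 145, 101.8, 132.5 and 144.2 CPM with ML264. All 4 treated libraries lay above all 4 untreated ones, with library 2 the lowest of the treated. Itpkb was 1.79-fold higher with ML264 (log2 fold change 0.84 ± 0.11 SE; edgeR adjusted p = 0.0091). The sham libraries held 149.5, 117.1, 140.4 and 139.7 CPM, so the treated libraries lay near the sham range. Against sham hearts the log2 difference was -0.90 in I/R (adjusted p = 0.000381) and -0.06 in I/R + ML264.

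Of the 31 tested genes for inositol phosphate kinases, phosphatases and receptors, Itpkb alone passed the test and none was called lower. Their median log2 fold change was 0.01, against 1e-04 over all genes, and 14 of the 31 had values below 0. Itpkc, a second kinase of the same reaction, had a log2 fold change of -0.62 ± 0.21 (adjusted p = 0.308) with overlapping groups.

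The promoter of Itpkb and, for contrast, that of Ilf2 are shown because these are called genes of opposite direction with an entry in the RefSeq table (GRCm38.p6), which matched 3 of the 8 called genes. Each line gives the 250 bases before the start annotated in RefSeq, 5′ to 3′ on the gene's strand. The Itpkb window is chr1:180330226-180330475 and the Ilf2 window is chr3:90475951-90476200, both on the plus strand. Capitals mark a match to CCNCNCCC (on the other strand GGGNGNGG), the GC-box type of KLF element. The shorter element CACCC, which reads GGGTG on the other strand, was also searched, and a single stretch can match both.
Itpkb: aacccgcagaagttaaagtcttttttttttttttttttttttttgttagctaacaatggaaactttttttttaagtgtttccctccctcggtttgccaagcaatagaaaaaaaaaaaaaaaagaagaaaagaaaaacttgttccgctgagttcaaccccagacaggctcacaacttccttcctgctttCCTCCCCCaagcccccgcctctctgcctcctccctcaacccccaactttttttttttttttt
Ilf2: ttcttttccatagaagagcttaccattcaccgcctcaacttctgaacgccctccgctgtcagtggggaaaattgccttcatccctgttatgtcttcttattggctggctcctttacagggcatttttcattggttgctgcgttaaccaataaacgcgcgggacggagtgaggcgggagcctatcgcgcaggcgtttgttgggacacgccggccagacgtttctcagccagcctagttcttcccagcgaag
The Itpkb window held 1 match to CCNCNCCC and no CACCC, with a GC content of 38.4%. The Ilf2 window held neither, with a GC content of 53.2%, and the third matched gene, Rbm25, also had neither in its window (chr12:83635460-83635709, plus strand; GC content 32.4%). The RefSeq starts of Ilf2 and Rbm25 lie downstream of the GENCODE gene starts given here, so the Ilf2 window reaches into the GENCODE gene and the Rbm25 window lies inside it. Among 14501 windows of genes tested, 60.2% held CCNCNCCC and 56.6% held CACCC, and among all 32851 windows the shares were 45.9% and 52%. A match describes letters in a window and is not a measured binding site.

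Atp6v1h encodes a regulatory subunit of the cytosolic domain of the vacuolar proton pump, which acidifies lysosomes and endosomes. It lies on chromosome 1, 5070018 to 5162529, plus strand, where Rgs20 overlaps it, and the Nextera XT libraries do not mark strand. Its level was 31.4, 34.2, 29.6 and 32.8 CPM in I/R and 20.8, 19.2, 20.3 and 21.3 CPM with ML264. The groups were well separated and each was tight. Atp6v1h fell to 0.638 of its I/R level (log2 fold change -0.65 ± 0.086; edgeR adjusted p = 0.0091). Sham hearts held 15.97, 15.86, 16.99 and 14.62 CPM, below every treated library. The log2 difference from sham was 1.01 in I/R (adjusted p = 2.91e-05) and 0.36 in I/R + ML264 (adjusted p = 0.0942).

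Of the 21 tested proton pump subunits Atp6v1h alone passed, and the median over the 21 was -0.105. The CPM of 4 of the 21 did not overlap between groups and was lower with ML264, where 3.08% of all genes tested had that pattern. Atp6v1d, a subunit of the pump's central stalk, was at 40.6, 39.1, 36.7 and 39.5 CPM in I/R and 31.3, 36.0, 34.9 and 28.7 with ML264, a log2 difference of -0.25 ± 0.11 (adjusted p = 0.446). It was among the 4 that did not overlap.

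**Figure D2:**
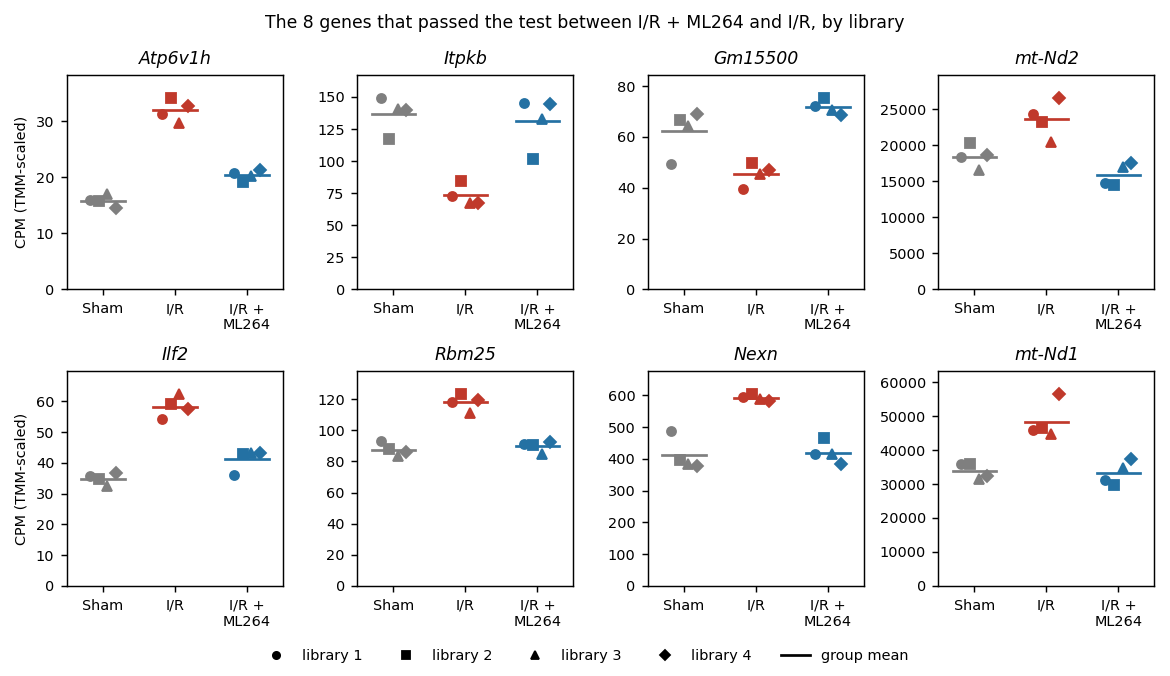
CPM (vertical axis, from 0) of the 8 called genes in each library of the 3 groups. The shape of the symbol marks the library number, and a line marks the group mean. In all 8 panels the I/R and I/R + ML264 libraries do not overlap.

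mt-Nd1 and mt-Nd2 encode core subunits of respiratory complex I and lie on the mitochondrial genome, at 2751 to 3707 and 3914 to 4951 on its plus strand. mt-Nd1 was at 45770, 46390, 44650 and 56530 CPM in I/R and at 31140, 29700, 34770 and 37290 CPM with ML264. The lowest I/R library was above the highest treated library. mt-Nd1 fell by 0.54 ± 0.094 on the log2 scale (edgeR adjusted p = 0.046), and its sham libraries spanned 31480 to 35980 CPM. mt-Nd2 was at 24390, 23190, 20480 and 26610 CPM in I/R and at 14700, 14520, 17000 and 17470 CPM with ML264. It fell by 0.57 ± 0.094 (adjusted p = 0.0347), and its sham libraries spanned 16510 to 20270 CPM. In mt-Nd2, 13.5% of the 31-base words also occur in transcripts of other genes, so part of its reads could be assigned elsewhere. Against sham, the log2 difference was 0.51 for mt-Nd1 (adjusted p = 0.00479) and 0.36 for mt-Nd2 (adjusted p = 0.0268) in I/R, and -0.03 and -0.21 in I/R + ML264.

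These were 2 of the 13 protein-coding mitochondrial mRNAs. The other 11 did not pass, although 12 of 13 had log2 fold changes below 0, against 50% of all genes, and 8 of 13 had groups that did not overlap and were lower with ML264, against 3.08% of all genes. The median over the 13 was -0.40, and it stayed between -0.58 and -0.29 in every setting computed. mt-Nd4l and mt-Nd6, both complex I subunits, had values of -0.54 (adjusted p = 0.0653) and -0.53 (adjusted p = 0.0725). mt-Nd4l shares 98.9% of its 31-base words with a nuclear predicted gene, and mt-Nd6 lies antisense to mt-Nd5. The value furthest from 0 was that of mt-Nd3, at 828.7, 662, 541.4 and 730 CPM in I/R and 365.1, 250.9, 378.5 and 141.6 CPM with ML264. Its groups did not overlap, but its spread was wide (log2 fold change -1.28 ± 0.32; adjusted p = 0.212).

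The remaining mitochondrial mRNAs varied by member. mt-Atp8 and mt-Atp6, subunits of the ATP synthase, had log2 fold changes of -0.65 and -0.35, and mt-Nd5 one of -0.36. Those of the cytochrome c oxidase subunits mt-Co2, mt-Co3 and mt-Co1 were -0.40 ± 0.48, -0.22 and 0.02. mt-Nd4 and mt-Cytb were at -0.21 and -0.11. Of the respiratory chain subunits encoded in the nucleus none of 52 passed, beside 0.0502% of all genes. Values lay below 0 in 16 of 52, and their median was 0.06. That median turned to -0.033 without treated library 3 and to -0.036 within libraries with low Y-linked transcripts. Ndufs7, a nuclear-encoded core subunit of complex I, was at 7.03, 7.04, 7.80 and 6.85 CPM in I/R and 10.2, 9.52, 11.7 and 10.1 CPM with ML264. Its groups did not overlap and its log2 difference was 0.53 ± 0.12 (adjusted p = 0.118). Across libraries the total mitochondrial share of counts was 38.01% to 41.07% in I/R and 35.24% to 39.2% with ML264, so the group ranges overlapped.

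**Figure D3:**
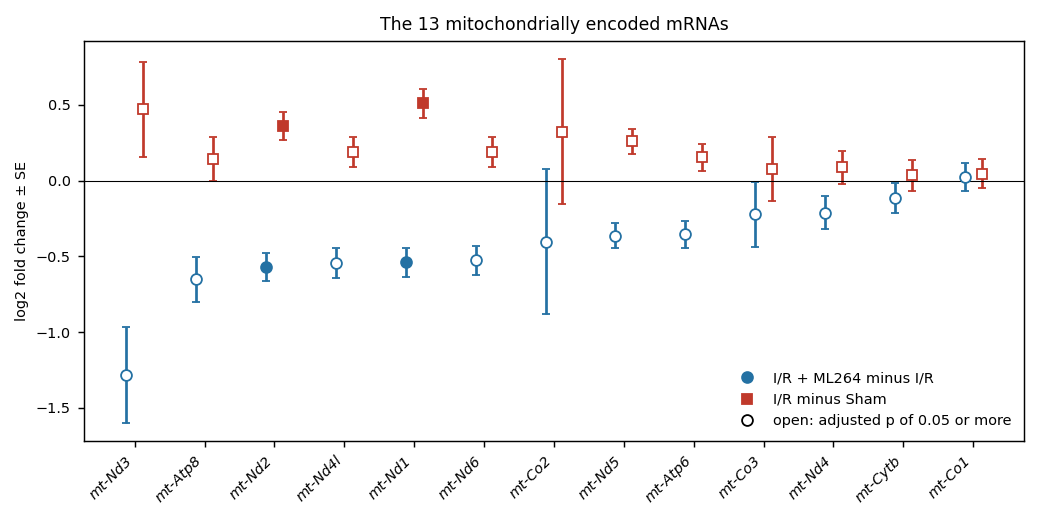
Log2 fold change with its SE (vertical axis) for each of the 13 mitochondrial mRNAs (horizontal axis). Circles are I/R + ML264 minus I/R and squares are I/R minus sham, with filled symbols at adjusted p under 0.05. The 2 contrasts share the I/R libraries. mt-Nd1 and mt-Nd2 are the filled circles, and 12 of 13 circles lie below 0.

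Nexn encodes nexilin, an actin-binding protein of the sarcomeric Z-disc and of the junctions between the plasma membrane and the sarcoplasmic reticulum. It lies on chromosome 3, 152236982 to 152266350, minus strand. Its level was 594.4, 604.1, 588 and 580.8 CPM in I/R and 414, 465.2, 414.2 and 384.7 CPM with ML264. The I/R libraries were almost equal and all lay above the treated ones. Nexn fell by 0.50 ± 0.083 on the log2 scale (edgeR adjusted p = 0.0347). Its sham libraries held 486.7, 396.5, 384.1 and 377.3 CPM, which overlapped the treated range. The log2 difference from sham was 0.53 in I/R (adjusted p = 0.0017) and 0.03 in I/R + ML264.

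Beside Nexn, none of the 18 cardiomyocyte markers tested passed (median 0.02), and neither did any of the 18 cardiac stress and fetal genes (median -0.095) or the 30 genes of calcium handling and ion channels (median 0.06). Of all genes tested, 0.0502% passed. Trdn, encoding triadin, which anchors calsequestrin to the calcium release channel, was at 204.7, 199, 210.7 and 210.2 CPM in I/R and 154.7, 175.1, 189 and 161.3 CPM with ML264. Xirp1, which encodes an actin-binding protein of the intercalated disc, was at 158.3, 110.5, 129.6 and 169.3 CPM in I/R and 99.0, 90.8, 89.6 and 80.3 CPM with ML264. Neither pair of groups overlapped, with log2 differences of -0.28 ± 0.074 (adjusted p = 0.181) and -0.66 ± 0.23 (adjusted p = 0.346). These 2 genes did not pass the test.

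Ilf2 and Rbm25 encode RNA-binding proteins of the nucleus. Ilf2 encodes NF45, which pairs with NF90 on double-stranded RNA, and lies on chromosome 3, 90476126 to 90488379, plus strand. It was at 54.3, 59.0, 62.4 and 57.4 CPM in I/R and 36.0, 42.9, 43.4 and 43.1 CPM with ML264. The groups were separate, and treated library 1 lay below the other treated libraries, within the sham range of 32.4 to 36.8 CPM. Ilf2 fell by 0.50 ± 0.081 on the log2 scale (edgeR adjusted p = 0.0347), and its log2 difference from sham was 0.74 in I/R (adjusted p = 0.000158) and 0.24 in I/R + ML264.

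Rbm25, a regulator of alternative splicing, lies on chromosome 12, 83631236 to 83683123, plus strand. It was at 118.5, 123.4, 111.3 and 119.3 CPM in I/R and at 91.4, 90.5, 84.7 and 92.3 CPM with ML264. All 4 treated libraries lay inside the sham range of 83.5 to 93.1 CPM. Rbm25 fell by 0.40 ± 0.066 on the log2 scale (edgeR adjusted p = 0.0347), with log2 differences from sham of 0.43 in I/R (adjusted p = 0.00128) and 0.03 in I/R + ML264.

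Of 36 tested splicing regulators Rbm25 alone passed. The log2 fold change was below 0 in 34 of the 36, against 50% of all genes, with a median of -0.118, and under upper-quartile scaling, which shifts all genes by 0.0205, the median was -0.097. The groups did not overlap, and were lower with ML264, in 6 of 36, against 3.08% of all genes. Rbm39, a splicing coactivator, was at 163.8, 154.2, 145.8 and 152.7 CPM in I/R and 116.9, 136.9, 114.6 and 119.4 CPM with ML264 (log2 difference -0.34 ± 0.079; adjusted p = 0.149). Tra2b, which activates exon inclusion, was at 41.6, 46.9, 43.8 and 49.9 CPM in I/R and 34.3, 37.7, 32.6 and 34.4 CPM with ML264 (log2 difference -0.39 ± 0.095; adjusted p = 0.156). Both are separated by group, with treated library 2 the highest of the treated.

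Gm15500, the other gene that rose, is a transcribed processed pseudogene of the ribosomal protein gene Rpl5 on chromosome 7, 114705217 to 114706235, minus strand. Its estimated level was 39.5, 49.7, 45.4 and 47.1 CPM in I/R and 72.3, 75.5, 70.5 and 68.5 CPM with ML264, without overlap. The log2 fold change was 0.66 ± 0.099 (edgeR adjusted p = 0.023), and the sham libraries held 49.5 to 68.9 CPM. Of its 31-base words, 99.9% also occur in Rpl5 and its copies, so how reads were divided between them is uncertain. Rpl5 itself was at 12.8, 12.9, 12.3 and 12.7 CPM in I/R and at 12.1, 13.04, 10.48 and 9.79 CPM with ML264 (log2 difference -0.16 ± 0.12; adjusted p = 0.688). Summed over Gm15500, Rpl5 and 2 further copies, the log2 difference was 0.51 ± 0.093 and the adjusted p was 0.0679, so the call ended. Gm15500 shares words with 15 other genes, and those with other names were not summed, so the division of reads stays uncertain.

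The uncalled genes of smallest p-value lay just beyond the threshold, and 25 genes had an adjusted p under 0.1, 6 higher and 19 lower with ML264. Zfp759, a zinc-finger gene, was at 3.63, 4.91, 5.15 and 3.63 CPM in I/R and 8.23, 7.17, 9.23 and 7.76 CPM with ML264 (log2 difference 0.90; adjusted p = 0.052). Rpl29, a ribosomal protein gene of which 44.9% of the 31-base words are shared with copies, had a log2 difference of 0.84 (adjusted p = 0.0774). Tmem39a, a membrane protein gene, was at 36.5, 29.4, 36.0 and 23.5 CPM in I/R and 19.8, 21.6, 15.6 and 18.9 CPM with ML264 (log2 difference -0.72; adjusted p = 0.0774). In each of these 3 the groups did not overlap.

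Map3k8 and H3f3b were lower with ML264 without overlap and without passing the test. Map3k8 encodes a kinase that relays inflammatory signals to ERK, and held 6.70, 10.1, 7.80 and 17.2 CPM in I/R against 4.29, 5.52, 3.47 and 4.32 CPM with ML264 (log2 difference -1.24; adjusted p = 0.084). H3f3b, encoding the replacement histone H3.3, held 38.4, 50.7, 46.1 and 60.2 CPM against 31.3, 31.4, 33.7 and 33.3 CPM (-0.59; adjusted p = 0.084). In both genes I/R library 4 was the highest and the treated libraries were tight.

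The other genes of this kind were given by their values only. Adjusted p was also 0.084 for Zfp655 (log2 difference -0.55), Snhg11 (-0.50), Ppfia1 (-0.57), Pqlc1 (-0.48), Cep295 (-0.49), Adamts7, a matrix metalloprotease gene (0.81), and Arhgap20 (0.40). Csrp1, which encodes a muscle LIM-domain protein, had a log2 difference of -0.70 (adjusted p = 0.0976), and Ndrg3 one of 0.57 (adjusted p = 0.109). The I/R libraries of Arhgap20, at 59.3 to 64.4 CPM, overlapped the sham libraries at 58.3 to 62.9, and the treated libraries, at 69.6 to 91.5, lay above both.

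The genes tied to KLF5 in earlier work on the heart did not pass the test. Sptlc2, a catalytic subunit of serine palmitoyltransferase, the entry enzyme of ceramide synthesis, was at 24.0, 29.0, 26.7 and 33.4 CPM in I/R and 23.7, 21.5, 19.4 and 20.02 CPM with ML264. The groups did not overlap by a narrow margin, and the sham libraries held 17.5 to 23.1 CPM (log2 difference -0.42 ± 0.12; edgeR adjusted p = 0.196). Its partner subunit Sptlc1 had a log2 difference of -0.29 ± 0.16 (adjusted p = 0.55). Nox4, an oxidant-producing NADPH oxidase, had one of 0.10 ± 0.12 (adjusted p = 0.83) and Ppara, the fatty acid receptor, -0.03 ± 0.10 (adjusted p = 0.941). All 4 lie within the list of 7 tested genes tied to KLF5, whose median was -0.05. None of 12 tested Krüppel-like factors passed, beside 0.0502% of all genes, and their median was -0.096. Klf7 and Klf9 were lower with ML264 without overlap, at 64.0 to 68.5 CPM in I/R against 43.6 to 62.1 for Klf7 and 32.7 to 39.6 against 27.9 to 32.2 for Klf9 (adjusted p = 0.242 and 0.647). In Klf7, 38.7% of the 31-base words are shared with other genes.

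Lists of metabolism held no called gene, but 0.0502% of all genes were called, a share at which lists of this size would hold none. None of 40 genes of fatty acid oxidation and PPAR targets passed (median 0.03), nor did any of 30 genes of hypoxia, glycolysis and glucose transport (median 0.08). In the fatty acid list 3 of 40 had groups that did not overlap and were higher with ML264, against 2.54% of all genes. In the glycolysis list 1 of 30 was higher and 1 lower without overlap. Cd36, the fatty acid transporter, was at 1208, 1197, 1153 and 1098 CPM in I/R and 1345, 1280, 1275 and 1349 CPM with ML264, and Acadl, long-chain acyl-CoA dehydrogenase, was at 181.6, 155, 164.1 and 162.7 against 183.5, 188.4, 223.9 and 182.8. Both pairs of groups were separated, by small steps, and neither passed (log2 difference 0.17 ± 0.066, adjusted p = 0.358, and 0.23 ± 0.084, adjusted p = 0.336). Gapdh, a glycolytic enzyme gene of which 28.1% of the 31-base words are shared with copies, was at 304.7, 367.7, 342 and 361.1 CPM in I/R and 406.6, 448.6, 429.2 and 442.1 CPM with ML264, while sham libraries held 388.4 to 436 CPM. Its groups did not overlap (log2 difference 0.33 ± 0.071; adjusted p = 0.115).

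The stress and inflammatory lists also held no called gene when all 12 libraries were fitted, beside 0.0502% of all genes. Their members' values lay below 0 to differing extents. Values were below 0 in 26 of 29 immediate early genes (median -0.31), 14 of 15 NF-kB subunits and feedback genes (-0.43), 13 of 18 chemokines, cytokines and adhesion molecules (-0.49), 15 of 18 IL-6, STAT3 and acute phase genes (-0.24) and 20 of 24 heat shock genes (-0.20), beside 50% and 1e-04 over all genes. They were also below 0 in 11 of 15 glucocorticoid-responsive genes (-0.245), 16 of 20 pyroptosis, necroptosis and ferroptosis genes (-0.145) and 15 of 24 p53 targets and apoptosis genes (-0.14). Other stress lists lay nearer to all genes: 14 of 27 interferon-stimulated genes (median -0.03), 10 of 18 genes of the integrated stress response (-0.05), 13 of 23 NRF2 targets and antioxidant genes (-0.04) and 11 of 18 endoplasmic reticulum chaperones (-0.03) had values below 0. Without treated library 2 the median was -0.59 for the immediate early genes, -0.577 for the glucocorticoid-responsive genes and -0.58 for the IL-6, STAT3 and acute phase genes. It changed less for the NF-kB genes (-0.478), and lay nearer to 0 for the chemokine list (-0.448) and heat shock genes (-0.164). With I/R library 4 also left out, the immediate early, glucocorticoid and IL-6 medians were -0.36, -0.424 and -0.424. Of the IL-6, STAT3 and acute phase list, 3 of 18 members had groups that did not overlap, all lower with ML264, against 3.08% of all genes. The same held for 3 of 29 immediate early genes, 3 of 24 heat shock genes and 1 of 15 NF-kB genes. It held for 1 of 15 glucocorticoid-responsive genes, and for 0 of 18 chemokine list members, 0 of 20 pyroptosis list members and 0 of 24 p53 list members. Saa3, an acute phase protein gene, was at 50.7, 33.0, 33.3 and 34.5 CPM in I/R and 25.9, 25.2, 26.5 and 21.3 CPM with ML264 (log2 difference -0.62 ± 0.15; adjusted p = 0.164). Gadd45b, an immediate stress gene, was at 2.38, 2.44, 1.89 and 2.85 CPM in I/R and 1.17, 1.36, 0.623 and 0.926 CPM with ML264 (-1.22 ± 0.32; adjusted p = 0.174). These 2 genes separated the groups at low or moderate levels without passing.

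List levels differed between the 4 treated libraries and also between the 4 I/R libraries. The mean level of the 15 NF-kB genes, as log2 CPM centred on each gene's mean over 12 libraries, was 0.207, 0.612, 0.467 and 0.649 in I/R and -0.024, 0.485, -0.457 and 0.168 with ML264, where sham libraries spanned -0.616 to -0.421. Treated library 2 lay inside the I/R range and library 3 inside the sham range. The chemokine list had the same order, at 0.169, 0.955, -0.231 and 0.356 in treated libraries 1 to 4 against 0.055, 0.996, 1.091 and 1.245 in I/R. For the IL-6 and STAT3 list the treated values were -0.241, 0.482, -0.316 and 0.161, against 0.221, 0.519, 0.402 and 0.848 in I/R. In each of these 3 lists library 2 was the highest and library 3 the lowest of the treated libraries.

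Markers of blood cells also differed between the treated libraries. The 15 neutrophil markers summed to 10.75, 12.59, 20.79 and 27.98 CPM in I/R, to 6.30, 26.28, 7.49 and 24.51 CPM in treated libraries 1 to 4, and to 5.38 to 8.06 CPM in sham hearts. Treated libraries 1 and 3 were at the sham level, and 2 and 4 at the upper end of the I/R level. None of the 9 tested neutrophil markers passed (8 of 9 below 0, median -0.52), beside 0.0502% of all genes. Their median ranged from -1.23 to 0.10 over settings. Platelet markers summed to 199.7 CPM in I/R library 4 and 144 CPM in treated library 4, against 11.6 to 44 CPM in the other 10 libraries. Their part in the results was not tested, and in bulk tissue fewer cells of a type and less RNA per cell cannot be told apart. Summed levels of the fibroblast, endothelial and macrophage lists overlapped between the groups, at 590.1 to 666.7, 811.8 to 845.9 and 165.6 to 191.7 CPM in I/R and 563.8 to 645.7, 787.2 to 911.3 and 152.4 to 197.3 CPM with ML264, and none of their members passed.

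**Figure D4:**
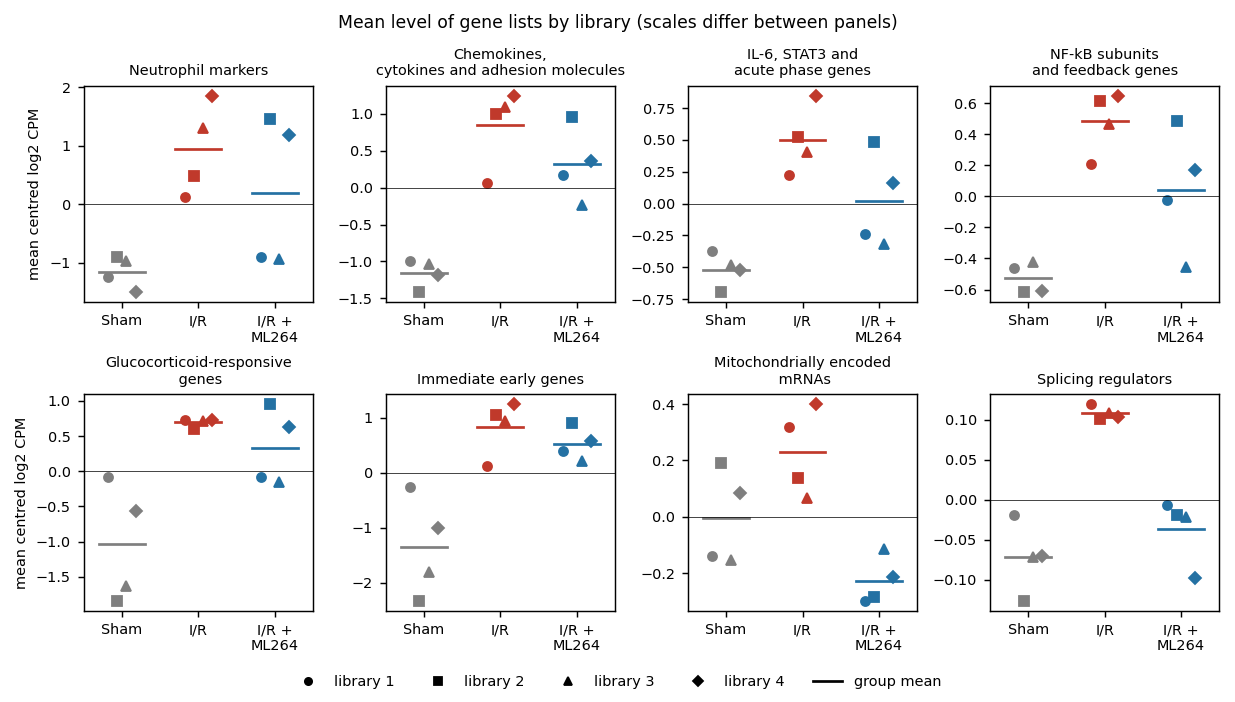
Mean centred log2 CPM (vertical axis) of 8 gene lists in each library of the 3 groups. The shape of the symbol marks the library number. In the NF-kB panel treated library 2 alone of the treated lies within the I/R range, at 0.485. In the chemokine panel treated libraries 1, 2 and 4 do, at 0.169, 0.955 and 0.356. Treated library 3 is the lowest treated library in both, at -0.457 and -0.231.

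Without treated library 2, 85 of 16159 genes were called (0.526%), 32 higher (0.198%) and 53 lower (0.328%), and they included all 8 genes called with every library. The median over all genes was 7e-04. The setting is 1 of 12 that left out a library in turn, and the number of calls in the other 11 ran from 0 to 11. The 85 genes were called with library 2 left out, and only 8 of them with it. Its position in them thus partly follows from that choice. In library 2, 39 of the 85 genes lay inside the I/R range and 7 inside the range of the other 3 treated libraries. On the I/R side of the midpoint between the groups lay 63, and the same shares over all genes were not computed.

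Genes of endothelial activation and cytokine signalling were among those 85, and their CPM are given here as scaled over all 12 libraries. Sele, encoding E-selectin, which captures leukocytes on activated endothelium, was at 6.48, 8.57, 14.0 and 21.6 CPM in I/R and at 2.06, 1.64 and 3.84 CPM in treated libraries 1, 3 and 4, with 7.94 CPM in library 2. Il6, the cytokine, was at 4.87, 5.94, 5.47 and 10.1 CPM in I/R and 0.816, 0.428 and 2.43 CPM in those 3, with 6.68 CPM in library 2. Icam1, the leukocyte adhesion receptor, was at 11.97, 11.72, 14.0 and 16.3 CPM in I/R and 6.03, 5.18 and 9.44 CPM in those 3, with 12.98 CPM in library 2. In all 3 genes library 2 lay inside the I/R range and the other treated libraries below it.

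Without library 2 the log2 fold changes were -2.34 ± 0.435 for Sele (edgeR adjusted p = 0.0498), -2.45 ± 0.478 for Il6 (adjusted p = 0.0482) and -0.97 ± 0.186 for Icam1 (adjusted p = 0.037). With it they were -1.70 (adjusted p = 0.297), -1.33 (adjusted p = 0.524) and -0.68 (adjusted p = 0.306). These were 3 of 19 tested members of the chemokine list, where 0.328% of all genes were called lower in that fit. Birc3, an NF-kB target that restrains cell death, was the single called gene of 15 NF-kB genes in that fit, at -0.84 (adjusted p = 0.037). Ptx3, a pattern recognition protein induced by cytokines, was at -2.29 and Sphk1, sphingosine kinase 1, at -1.39, and Kdm6b, a histone demethylase gene, and Ccrl2, a chemokine-binding receptor gene, at -0.99 and -1.03.

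Other groups gained calls without library 2 as well. Among the mitochondrial mRNAs 4 of 13 passed and were lower, against 0.328% of all genes in that fit, with mt-Nd4l and mt-Nd6 (both adjusted p = 0.0431) added to mt-Nd1 and mt-Nd2, and Rbm39 joined Rbm25 among the splicing regulators (-0.395; adjusted p = 0.0414). Among genes higher with ML264 were Zfp759 (0.96), Rpl29 (0.87), Prdm1, a transcriptional repressor of immune cell fate (1.27), Trpm4, a calcium-activated cation channel gene (0.75), and Rgs3, a regulator of G-protein signalling (0.88). Tlcd2, a membrane lipid gene, was at 10.3, 12.5, 9.21 and 14.5 CPM in I/R and 3.97, 3.93 and 4.01 CPM in treated libraries 1, 3 and 4, with 12.5 CPM in library 2. It fell by 1.54 on the log2 scale without library 2 (adjusted p = 0.000452), while library 2 held an I/R-like level. The genes named here from the 85 were chosen after their values were seen.

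**Figure D5:**
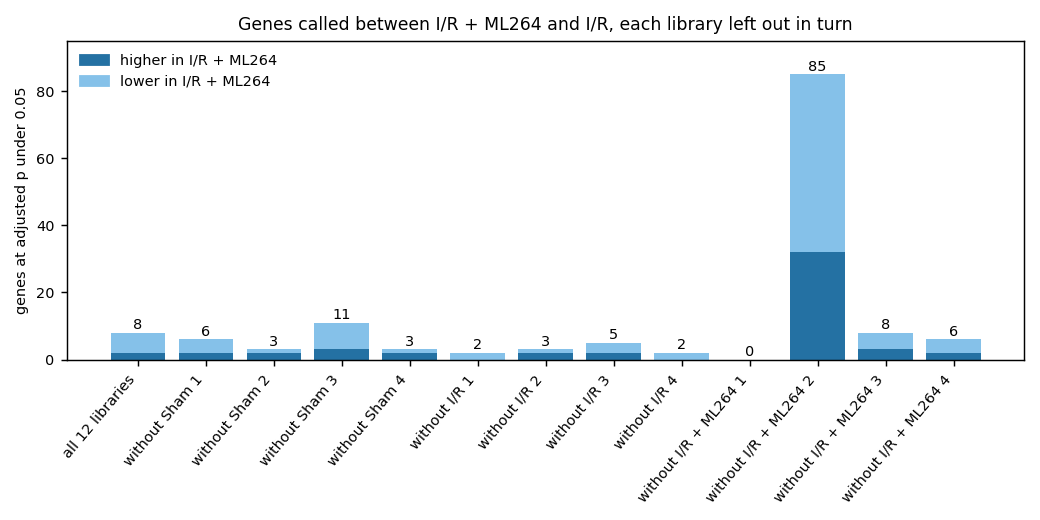
Count of genes past the threshold between the 2 injured groups (vertical axis) with all 12 libraries and with each library left out in turn (horizontal axis), stacked as higher and lower with ML264. The bar without treated library 2 reaches 85 genes, and without treated library 1 there were none.

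Single genes also set each treated library apart from the other 7 injured libraries. At least 2-fold above or below all of them were 92 genes in treated library 1, 121 in library 2, 94 in library 3 and 71 in library 4, and in the I/R libraries 68, 39, 50 and 145. In library 2, Rab6b, a Golgi transport GTPase, was at 0.161 CPM against 11.96 to 14.22 in the other 7 injured libraries, and Nxpe2 and Nxpe4, neighbouring genes on chromosome 9, were at 0.194 and 0.775 CPM against 3.70 to 9.19 and 11.1 to 23.4. Fmn1, an actin-assembling formin, was at 66.2 CPM there against 2.96 to 6.97, and Kcnip1, a potassium channel-interacting protein gene, at 10.4 against 1.37 to 2.06. In library 1, Cyfip2, part of the WAVE actin-regulating complex, was at 14.9 CPM against 148.7 to 199.5 in the other injured libraries, and sham library 3 was also low, at 22.2 CPM. Library 4 held Hmga1, a chromatin architectural protein gene, at 0.353 CPM against 4.20 to 9.17, although 62.1% of its 31-base words are shared with a copy and another gene. The spread between libraries was similar in the groups: the median SD of log2 CPM over genes was 0.236 in I/R and 0.247 with ML264, and 0.206 and 0.212 without I/R library 4 and treated library 2.

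Of the 8 calls, that of Atp6v1h held in 11 of 12 fits that left out a library and that of Itpkb in 9, followed by Gm15500 in 8, mt-Nd2 in 5, Rbm25, Nexn and mt-Nd1 in 3 and Ilf2 in 2. No fit reversed the direction of any of the 8. Without treated library 1 no gene passed, and the adjusted p of Atp6v1h and Itpkb was then 0.0603. Over the 12 fits the log2 fold change stayed between -0.685 and -0.616 for Atp6v1h and between 0.784 and 0.945 for Itpkb.

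Transcript-level rows could not be read by their labels. Among 6611 genes with at least 2 transcripts and 100 counts in every library, the transcript with the largest value was the same one in 20.2% to 22.6% of genes over 66 pairs of libraries, with a mean of 21.4%. Drawing a transcript of each gene evenly would give a mean of 21.4%. For genes with 2 transcripts the share was 50.2%, and for genes with 3 it was 33.3%. The share held by the largest value, whatever its label, had a median of 67.9% and a median SD of 5.02 percentage points over libraries. Transcript names therefore do not carry over between libraries in this table, and summed gene values do not depend on them. By label, 0 of 9956 genes differed in transcript shares between I/R + ML264 and I/R (edgeR; 0% of genes), with 586 at an unadjusted p under 0.05, and limma on logit shares called 5 (0.0502%).

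Without labels, shares were compared by the largest value of each gene. In 12435 genes, 2 differed (limma, 0.0161%), and 872 had an unadjusted p under 0.05. Ripk3, the kinase that drives necroptosis, had 64.14%, 69.2%, 55.22% and 67.11% of its counts in its largest value in I/R and 100% in every treated and sham library (adjusted p = 0.00631). This rests on few counts: the second value was 7.2, 8, 4.9 and 8.9 counts in I/R and 0 elsewhere. Kcnip4, a potassium channel-interacting protein gene, had 82.3%, 74.15%, 63.13% and 81.23% in I/R and 97.77%, 100%, 100% and 100% with ML264 (adjusted p = 0.011). Its second value was as small, at 5.8, 5.9, 10 and 3.6 counts in I/R and 1.1, 0, 0 and 0 counts with ML264.

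In the ordered values of each gene, edgeR called 26 of 8504 genes (0.306%), and limma on the largest share called none of these 26. Rif1, a factor of DNA repair and replication timing, held 84.28%, 82.6%, 80.81% and 90.54% of its counts in its largest value in I/R and 63.73%, 51.59%, 52.28% and 42.18% with ML264 (edgeR adjusted p = 0.00646; limma 0.311). Tpi1, a glycolytic isomerase, held 67.41%, 69.8%, 72.29% and 64.57% in I/R and 75.67%, 83.53%, 88.71% and 84.91% with ML264 (edgeR adjusted p = 0.0385; limma 0.391). The groups of both genes did not overlap, in opposite directions. The 2 were chosen among the 26 after their values were seen.

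Itpkb has 2 transcripts in the table, and the gene-level rise lay in the larger value. That value was 1238, 1425, 930 and 1116 counts in I/R, 3174, 2249, 2802 and 2558 counts with ML264 and 2496 to 3360 counts in sham hearts. The smaller value was 691.7 to 758.7 counts in I/R and 601.4 to 913.1 counts with ML264, which overlapped. The larger value's share was 62%, 66.38%, 55.25% and 61.74% in I/R and 77.66%, 71.34%, 82.33% and 78.22% with ML264, without overlap, but the difference in share did not pass (log2 odds 1.124 ± 0.241; limma adjusted p = 0.312). For Atp6v1h, Ilf2, Rbm25, Nexn and Gm15500 the share of the largest value overlapped between groups.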

How the data were processed

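RNA from 12 heart libraries (Nextera XT, paired-end) was quantified with kallisto after FastQC on GRCm38/mm10, per the submitters' processing notes; their versions were not given in these sources. The deposited table holds estimated counts per transcript, made by the authors, for 104952 transcripts. These were summed by gene symbol and rounded. Groups follow the labels. edgeR 4.0.16 (R 4.3.3) was fitted over all 12 libraries with TMM scaling, filterByExpr (minimum count 10), a robust quasi-likelihood test and Benjamini-Hochberg adjustment at 0.05. CPM are TMM-scaled. limma 3.58.1 tested transcript shares, and DESeq2 1.42.0 was an alternative. Totals of 22.26 M to 29.93 M counts gave a median SE of 0.192 log2. Methods were tested on simulated data. GENCODE M21 (GRCm38) gave the coordinates and contained 98.6% of the deposited transcript IDs, versions ignored.

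The comparison and its gene lists were chosen with earlier results of these data known. Genes named were those called, the 16 uncalled genes of smallest p-value (not predicted genes, average log2 CPM 1 or more), Klf5, Ppara, Nox4, Sptlc1 and Sptlc2, up to 3 genes of smallest p-value per list with 5 or more tested members, up to 8 genes by transcript share, and genes at least 2-fold from all other injured libraries. Others are said to be chosen after their values were seen. Alternatives covered scaling, filters, tools, libraries left out and the replicate block.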

Additional observations from a re-analysis of the deposited data

Results flagged for a closer look

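In groups of 4 libraries, 1 library was taken as far from the others where its gap to the nearest, divided by the group's range, was above Dixon's critical value. Of 176 groups of libraries examined, 14 stood out, and chance gives about 1 in 20 groups. Some of the genes examined were chosen because 1 library was extreme, so the count cannot be set against that rate.

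Among the called genes, the ratio was 0.939 for Ilf2 in I/R + ML264, where library 1 was low, and 0.854 for mt-Nd1 in I/R, where library 4 was high. Sptlc1 had a ratio of 0.853 in I/R + ML264. Tlcd2 had 0.991 there, with library 2 at 12.5 CPM and the other 3 near 4 CPM. Tlcd2 was named from the fit without library 2, so its ratio partly follows from that choice.

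Cyfip2 (0.912), Fmn1 (0.937) and Kcnip1 (0.938) in I/R + ML264, and Rab6b there (0.839) and in I/R (0.891), were measured because they had been seen to set a library apart. Cyfip2 was low in library 1, and the other 3 genes differed in library 2 of the treated group.

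Of the gene list levels, the glucocorticoid-responsive genes (0.909), the smooth muscle and pericyte markers (0.846) and the T, B and NK cell markers (0.849) had 1 library far from the others in I/R, and the interferon-stimulated genes (0.854) and the splicing regulators (0.846) in I/R + ML264. The splicing regulators were at -0.098 in treated library 4 and between -0.021 and -0.007 in the other 3.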

How the results depend on the processing

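The number of genes called was the most variable result. Against 8, it was 153 with DESeq2 (59 higher, 94 lower), 22 with no filter on low counts, 2 with the non-robust spread, and 0 to 85 with 1 library left out (0 without treated library 1, 85 without treated library 2). It was 16 without I/R library 4 and treated library 2, 0 within libraries with high Y-linked transcripts and 7 within those with low ones, settings chosen after seeing the data. RLE, upper-quartile scaling, a 1 CPM minimum, the 8 injured libraries alone, limma voom, a Y-linked covariate and leaving out mitochondrial genes gave 6 to 9.

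With the replicate number as a block, 1 gene was called (Gm15500). The labels do not say whether same-numbered libraries share more than a number. Between I/R and I/R + ML264 their deviations correlated at -0.029 to 0.097, and 2 of 4 numbers correlated best with themselves. Sham libraries were not compared, and a shared batch was not tested.

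Genes with a change in transcript share numbered 0 by label in edgeR, 5 with limma on logit shares, 2 by the largest value and 26 by ordered values. The 2 became 0 with the replicate block, 1 in the 8 injured libraries, 5 without I/R library 4 and treated library 2, and 1 to 6 with 1 library left out. At 1.5-fold in place of 2-fold, the genes setting a library apart numbered 279, 174, 179 and 475 in I/R libraries 1 to 4 and 261, 344, 293 and 236 in the treated ones. With at least 1 CPM in 4 libraries they numbered 31, 15, 19 and 77, and 40, 85, 48 and 28.

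Direction changed in 4 uncalled values: Ppara was 0.073 without I/R library 3 (-0.086 to 0.073 with 1 library left out), Nox4 (0.033 to 0.157 with 1 left out) was -0.03 without I/R library 4 and treated library 2 and -0.11 within libraries with high Y-linked transcripts, and Sptlc1 was 0.046 in the latter. The cause was not tested. Depth limited genes at the level of Klf5, at most 15 counts per library.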
